A study of Mus musculus with 2 samples.

Results

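Ribosome biogenesis and nucleolar genes were examined as a set of 56 named genes, listed by symbol for their known place in the making of ribosomes. The choice was made with earlier results of these data known. All 56 were found by gene symbol, with 119 probe sets, among the 18193 genes named on the array. Each gene is represented by its brightest probe set. Signals are in arbitrary units, and genes whose mean over both arrays exceeded 394, the median of all values and here the floor, are called measured, as 55 of the 56 were. Rrp12, a factor of late small subunit assembly, was the exception, at 90.8 in knockout cells and 364 in wild-type cells. The series holds 2 arrays. One was hybridised with RNA of Miz1 knockout thymocytes, from the Miz1-delta-POZ animals of the study, and the other with RNA of wild-type (wt) thymocytes, and both genotypes were on the C57BL/6 background. Both samples were lineage-negative, CD44-negative and CD25-positive cells, the sort that defines the DN3 stage, at which the pre-T cell receptor is first tested. The labels do not state the ages of the animals, whether animals were pooled, or how and in which cells the allele was deleted. With 1 array per genotype there was no spread between animals, no test of genotype was possible, and every difference below is described by its size alone.

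A ribosome begins in the nucleolus as a long precursor RNA made by RNA polymerase I. Box C/D and box H/ACA particles, which are small nucleolar RNAs with a fixed set of proteins, guide its methylation and pseudouridylation, while the small subunit processome and the large subunit assembly factors fold and cut it. Many of these genes are known as targets of MYC, and their expression is high in lymphocytes that grow and divide, as thymocytes do after the pre-T cell receptor signals. Miz-1 is the product of Zbtb17, a transcription factor that binds MYC, and its POZ domain is needed for stable binding to chromatin.

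Zbtb17 read 1361 in knockout cells and 3042 in wild-type cells, but it is unknown whether its probes lie outside the deleted part, so this does not check the label. Of the preset DN3 markers 13 were named and all 13 were measured, with a median log2 ratio of knockout over wild type of 0.62. Il2ra, which encodes CD25, read 23018 and 4992, while Cd44 lay below the floor by its mean. Myeloid markers were higher in the knockout, with 3 of 4 measured genes (Lyz1, Lyz2 and Csf1r) at least 2-fold higher and summed signals of 9994 and 3389 over the 10 named, while the other 6, among them Itgam, Mpo and Elane, lay below the floor. Of NK and gamma-delta T cell markers 3 of 6 measured (Nkg7, Maf and Xcl1) were at least 2-fold higher and none at least 2-fold lower. The other 3 had ratios below 0 (Klrd1 -0.79, Gzma -0.50 and Sox13 -0.14). Summed signals over the 8 named were 23497 and 25422, and Eomes and Ncr1 lay below the floor. Of 4 measured B cell markers Ighm was 2.49-fold lower, with its other measured probe sets from -1.31 to 0.54. The other 3 were higher in the knockout (Ms4a1 0.54, Cd79b 0.90 and Cd79a at least 0.78). The wild-type value of Cd79a lies below the floor, so its ratio is a bound. Summed signals over the 6 named were 15808 and 30875, most of it from Ighm (11340 and 28208), and Ebf1 and Pax5 lay below the floor. The part of these cells in the results was not tested. Xist read 55300 and 423 and the Y-linked Kdm5d 36.7 and 1782 in the knockout and the wild type, so sex and genotype cannot be told apart. In bulk samples fewer cells of a type and less RNA per cell cannot be told apart either.

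The set as a whole lay lower in the knockout. At least a 2-fold difference was seen for 6 of the 55 measured genes, all 6 lower and none higher, where 5.65% of the 10770 measured genes of the array were at least 2-fold lower and 7.23% at least 2-fold higher. The 6 genes make 10.9% of the set. Under loess normalization 3 remained past 2-fold, 5.45% of the set against 6.31% of all measured genes, and with a floor at the lower quartile the shares were 12.5% and 13.9%, so the excess of 2-fold calls over the background depends on the setting. Counted from 1.5-fold, a limit added after the values were seen, 16 of the 55 were lower (29.1%, against 17.9% of all measured genes) and none was higher (against 19.2%). A ratio below 0 was found for 41 of the 55, or 74.5%, where 50% of all measured genes had one. The median log2 ratio was -0.30, with quartiles of -0.65 and -0.02, and the median of all measured genes was 0.00. The highest ratio in the set was 0.41, for Polr1a. Where a gene had several measured probe sets, the root mean square of the standard deviations (SD) of their log2 ratios was 0.47 over 36 genes of the set and 0.57 over 4514 genes of the array. A 1.5-fold difference, 0.58 on the log2 scale, is therefore of the size of the disagreement between probe sets of a gene. That spread holds nothing of the variation between animals.

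**Figure D1:**
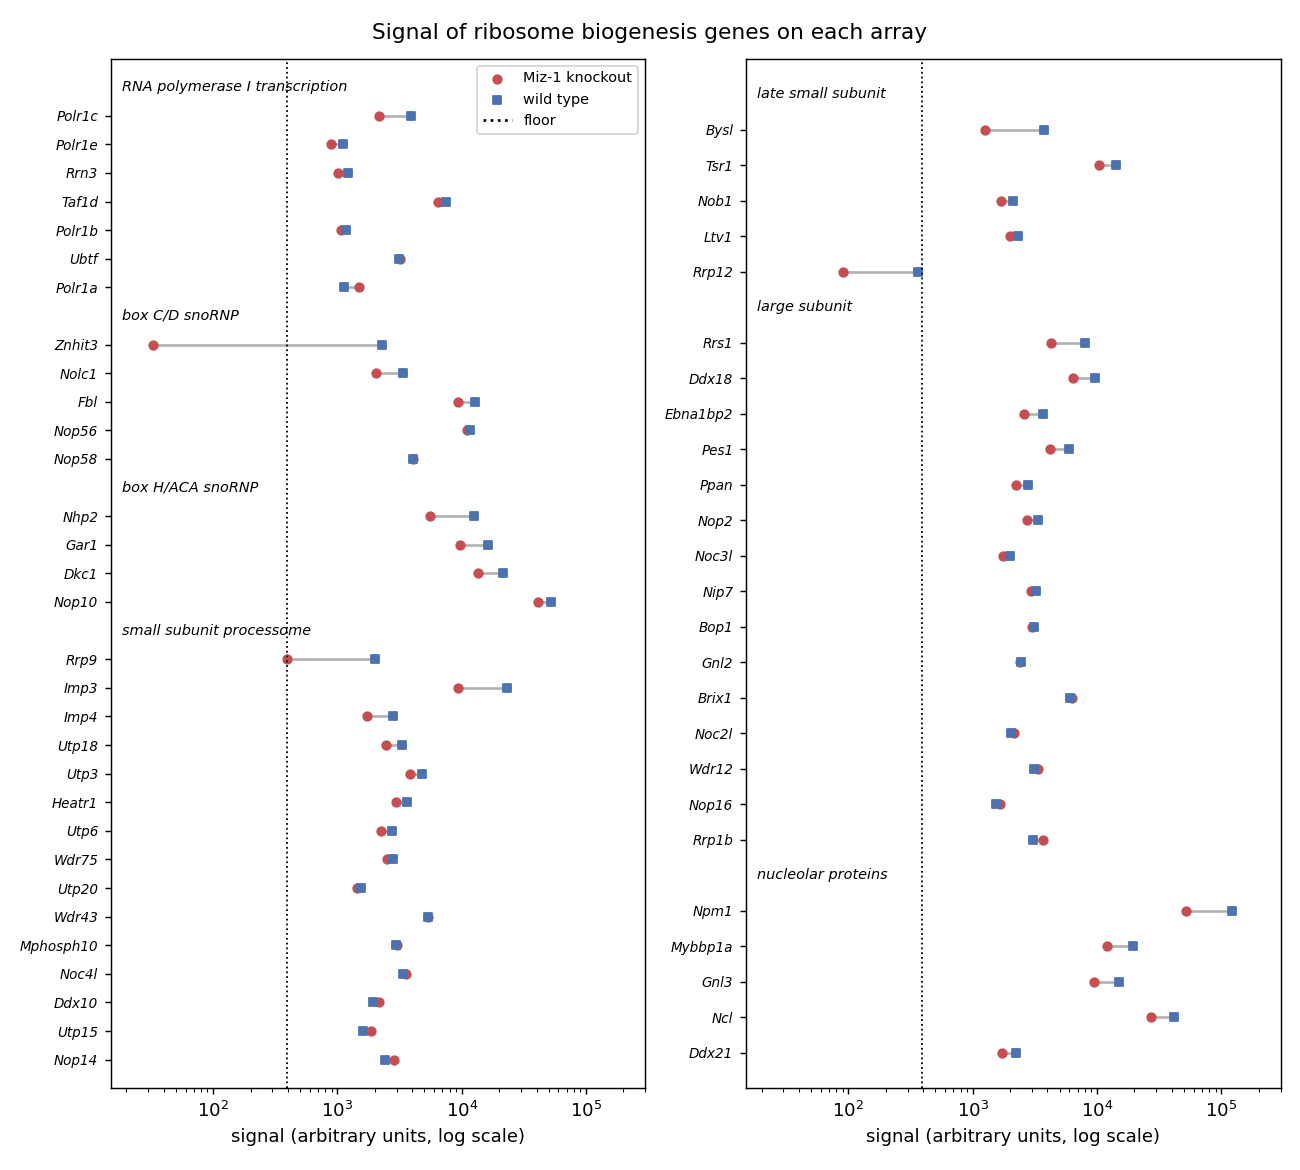
Signal of each of the 56 genes on the Miz-1 knockout array (circles) and the wild-type array (squares), on a log axis in arbitrary units, grouped by role and ordered by ratio, with the floor of 394 as a dotted line. Znhit3, Rrp9, Bysl, Imp3, Npm1 and Nhp2 have the widest gaps among measured genes, each with the wild-type symbol to the right, and most large subunit factors have symbols that nearly touch.

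The genes of RNA polymerase I transcription had a median slightly below 0. Of the 7 measured genes none differed by 2-fold, 5 had a ratio below 0 and the median log2 ratio was -0.22. Quantile normalization put this group at -0.27 and loess at -0.26, near the whole set at -0.26 and -0.24. Polr1c, a subunit shared by RNA polymerases I and III, had the lowest ratio and read 2152 in knockout cells and 3889 in wild-type cells, 1.81-fold lower. Its second probe set went the other way, at 1639 and 1307. The 2 probe sets of Polr1c thus disagree on the direction. Polr1e, a subunit that associates with the core enzyme, read 890 and 1108, with a dimmer probe set at -0.76, and Polr1b, the second largest subunit, 1060 and 1175. Rrn3, which carries the polymerase to the promoter, read 1018 and 1210, a log2 ratio of -0.25. Each of these 3 was dimmer in knockout cells, by less than the spread of probe sets except for the second Polr1e probe set. Ubtf, the upstream binding factor that opens ribosomal DNA, read 3178 and 3129, and its probe sets lay between 0.02 and 0.04. Polr1a, the largest subunit, read 1496 and 1124, the highest ratio of the set at 0.41, with its other measured probe sets at -0.65 and 1.37. Taf1d, a component of the promoter selectivity factor, had 6 measured probe sets spread from -0.53 to 0.71. Neither Polr1a nor Taf1d therefore has a direction shared by its probe sets.

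In the deposited values, proteins of the snoRNA particles lay lower, most of all those of the H/ACA class. All 4 H/ACA core proteins had a ratio below 0, with a median log2 ratio of -0.71, which was -0.47 under quantile and -0.39 under loess normalization. All 4 had mean signals above 16 times the floor, where the median of all measured genes was -0.32. Nhp2 read 5552 in knockout cells and 12527 in wild-type cells, 2.26-fold lower. Its second probe set, whose sequence is not marked as shared, read 1695 and 4001, and the 2 probe sets gave log2 ratios of -1.17 and -1.24. Gar1 read 9633 and 16141, a log2 ratio of -0.74. Dkc1, which encodes the pseudouridine synthase dyskerin and lies on the X chromosome, read 13426 and 21493, 1.60-fold lower. Its other probe sets read 7818 against 15714 and 6280 against 4834, so they point in opposite directions, and the sexes of the samples differ. Nop10 read 40742 and 52429, a log2 ratio of -0.36 that turned to 0.09 under quantile and 0.14 under loess normalization. Of the 5 genes of the C/D particles and their assembly 4 had a ratio below 0, with a median of -0.46. Quantile normalization brought the C/D genes to -0.26 and loess to -0.20, no lower than the polymerase I genes at -0.27 and -0.26. The gap between the C/D and polymerase I medians thus depends on the normalization. Znhit3, which takes part in C/D particle assembly and is read by 1 probe set, was at 32.8 in knockout cells and 2304 in wild-type cells, at least 5.85-fold lower since the knockout value lies below the floor. Nolc1, a chaperone of the particles, read 2053 and 3393, with its 3 probe sets between -0.85 and -0.08. Both have every measured probe set below 0. Fbl, the methyltransferase fibrillarin, read 9270 and 12782, and its 2 probe sets gave -0.46 and -0.62. The scaffold protein Nop58 was level, at 4090 and 4072. Its partner Nop56 read 10967 and 11759 by its brightest probe set and 7830 and 11422 by the second, a log2 ratio of -0.54. The direction of the brightest Nop56 probe set turned under quantile and loess normalization, and that of Nop58 under median centring. Of the C/D genes only Znhit3 was past 2-fold.

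In the small subunit processome a few factors were far lower while most were level. Of 15 measured genes 2 were at least 2-fold lower, 9 had a ratio below 0 and the median log2 ratio was -0.18. Rrp9, a protein of the U3 particle, itself a part of the processome, read 389 in knockout cells, just below the floor, and 2008 in wild-type cells, at least 5.09-fold lower. Imp3, which in yeast helps the U3 RNA pair with the precursor, read 9288 and 23175, 2.50-fold lower. Rrp9 and Imp3 are each read by 1 measured probe set. Imp4, the partner of Imp3, read 1742 and 2786, with a second measured probe set at -0.02. Mphosph10, which forms a complex with both, read 3036 and 2978. The log2 ratios of the 3 proteins of that complex were -1.32, -0.68 and 0.03. Utp6, a processome subunit, had all 3 measured probe sets below 0, from -1.07 to -0.29, and read 2258 and 2758 by the brightest. The -1.07 is a bound, as that probe set lies below the floor in the knockout. Of the further subunits Heatr1 read 2962 and 3637, with a second measured probe set at 0.43, Utp3 3866 and 4773, and Utp18 2463 and 3333. By the brightest probe sets their log2 ratios were between -0.44 and -0.30, inside the spread of probe sets. Nop14 read 2858 and 2433, the highest ratio of the group at 0.23. Noc4l, its partner in yeast, read 3546 and 3389 by its brightest probe set, while its lowest of 4 stood at -1.32. The other members, Wdr75, Utp20, Wdr43, Ddx10 and Utp15, lay between -0.18 and 0.21 by their brightest probe sets. Second measured probe sets stood at -0.60 for Utp15 and 0.26 for Ddx10.

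One late small subunit factor was past 2-fold. Bysl, the bystin that acts in late processing of the small subunit, read 1249 in knockout cells and 3728 in wild-type cells, 2.98-fold lower. Its second probe set read 1552 and 1518, a log2 ratio of 0.03, so the 2 probe sets disagree by more than the usual spread. Tsr1, which binds the nearly finished small subunit, read 10382 and 14156, with both probe sets below 0 (-0.45 and -0.31). Nob1, the nuclease that makes the end of the mature small subunit RNA, read 1703 and 2102. Ltv1, an export-linked assembly factor, read 1996 and 2301. All 4 measured genes had a ratio below 0 and their median was -0.38.

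Large subunit assembly factors had the median closest to 0 of the 7 groups. None of the 15 measured genes was past 2-fold, 10 had a ratio below 0 and the median log2 ratio was -0.13. That median turned to 0.019 when all probe sets of a gene were averaged, so the group has no direction that holds across probe sets. Rrs1, which brings the 5S RNA particle to the precursor, had the lowest ratio at 4299 in knockout cells and 7963 in wild-type cells, and its 2 probe sets agreed at -0.89 and -0.88. Ddx18, an RNA helicase, read 6386 and 9583, with 2 measured probe sets at -0.59 and -0.73. For Rrs1 and Ddx18 all measured probe sets were below 0. In the PeBoW complex, which acts in processing of the large subunit RNA, Pes1 read 4227 and 5938, Bop1 2986 and 3136, and Wdr12 3379 and 3145. Their log2 ratios were -0.49, -0.07 and 0.10, and dimmer probe sets of Bop1 and Wdr12 stood at 0.46 and 0.74. Ebna1bp2, an assembly factor, read 2576 and 3696, with a dim second probe set at 0.63. Nop2, a methyltransferase of the large subunit RNA, read 2762 and 3372, and Ppan, another assembly factor, 2235 and 2811. Apart from the dim Ebna1bp2 probe set these lay below 0, all within 2-fold. Rrp1b read 3678 and 3039, the highest of the group at 0.28, with its other probe sets at -0.30 and 0.08. Noc3l, Nip7, Gnl2, Brix1, Noc2l and Nop16 lay between -0.18 and 0.10 by the probe sets that read them, and a dimmer Brix1 probe set stood at 1.33.

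The major nucleolar proteins were lower throughout. All 5 genes had a ratio below 0 with a median log2 ratio of -0.68 (-0.46 under quantile and -0.40 under loess normalization), and in each of the 5 every measured probe set was below 0. Apart from Ddx21, these genes had mean signals above 16 times the floor. In that band all measured genes had a median of -0.32, and 69.7% of them had a ratio below 0. Npm1, the nucleolar phosphoprotein nucleophosmin, read 51825 in knockout cells and 122381 in wild-type cells, 2.36-fold lower, and its second probe set read 15654 and 28339. It was within 2-fold under quantile (-0.69) and loess (-0.65) normalization. Ncl, nucleolin, read 27358 and 41822, and its 5 probe sets ranged from -0.94 to -0.26. Its brightest probe set moved from -0.61 to -0.20 under quantile normalization. Mybbp1a, a nucleolar protein that also binds transcription factors, read 11955 and 19606, with probe sets at -0.71 and -0.78. Gnl3, the GTP-binding protein nucleostemin, read 9470 and 15170. Ddx21, an RNA helicase of both polymerase I and ribosomal RNA processing, read 1717 and 2252. Wild-type signal was the higher for each of the 5.

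**Figure D2:**
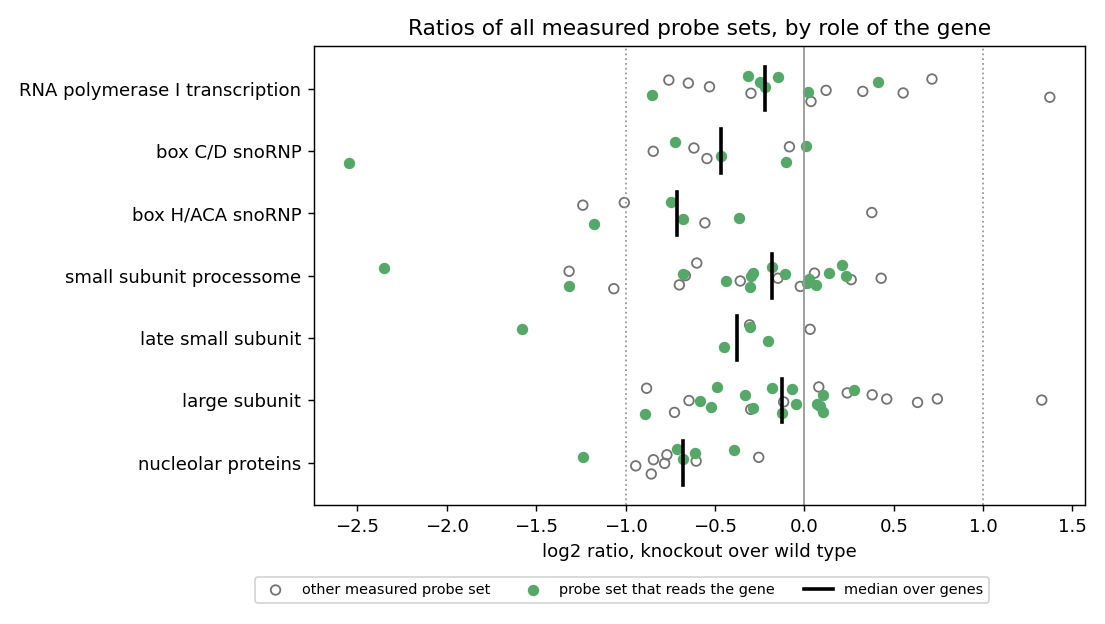
Log2 ratios of knockout over wild type for the 105 measured probe sets of the 55 measured genes, by role of the gene, with the probe set that reads the gene filled, the others open, the median over genes as a bar and 2-fold limits as dotted lines. Every nucleolar protein probe set lies left of 0, and those of the polymerase I and large subunit groups lie on both sides.

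Over all 105 measured probe sets of the set, 10 were at least 2-fold lower and 2 at least 2-fold higher, against 5.68% and 7.76% of the 18180 measured named probe sets. The share below 0 was 69.5% in the set and 48.7% over all. Of the 36 genes with several measured probe sets 16 had all of them below 0, 4 had all above 0 and 16 had them on both sides. The 2 probe sets past 2-fold on the high side belong to Polr1a and Brix1 and are dimmer than those that read these genes.

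Ratios on these arrays were lower for brighter genes, and the set holds bright genes. The median log2 ratio of the set was -0.25 between 1 and 4 times the floor (7 genes), -0.18 between 4 and 16 times (34 genes) and -0.65 above 16 times (14 genes). In the same 3 bands the medians of all measured genes were 0.09, -0.02 and -0.32, each above that of the set. All 14 genes of the set in the top band had a ratio below 0, as had 69.7% of the 1240 measured genes there. The nucleolar protein and H/ACA groups, which had the lowest medians, were also the brightest, with median mean signals of 15780 and 15173. Across genes the rank correlation of ratio with mean signal was -0.31 over the 55 genes and -0.14 over all 10770, which share the same 2 arrays. Loess normalization, which removes such a trend, left a median of -0.24 for the set and -0.03 for all measured genes. It also left Znhit3, Rrp9 and Bysl past 2-fold and moved Npm1 to -0.65, Nhp2 to -0.97 and Imp3 to -1.0, Imp3 just short of 2-fold. Quantile normalization moved Npm1 to -0.69 and kept the other 5 past 2-fold.

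The promoters of the set were searched on both strands for short motifs. They were the E-box CACGTG, to which MYC binds with MAX, and CCGGAAG, an ETS site. ATCGAT, taken here as the core of the Miz-1 site, was searched as well. The RefSeq table of GRCm38.p6 holds 57 promoters for 48 of the 56 genes, each from 250 bases before to 50 bases after a start. The E-box was in 10 of the 57 (17.5%), against 19.4% of the 103 promoters of the other pathway genes, 9.69% of the 11151 of measured genes and 7.15% of all 32851. The ETS letters were in 21 of the 57 (36.8%), against 42.7%, 17.7% and 8.86% of the same promoters. The Miz-1 letters were in none of the 57, against 0.97%, 1.01% and 0.93%. At shares this low 57 promoters are too few to compare, and other forms of a Miz-1 site were not searched. The 10 genes with an E-box had a median log2 ratio of -0.36 and the 38 measured genes without one -0.26. None of the 10 and 4 of the 38 were past 2-fold, where 5.65% of all measured genes were at least 2-fold lower. Npm1 and Znhit3, both past 2-fold, have no promoter among the 57, and 10 genes are too few to compare these shares. A match is a description of letters and not of binding.

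The E-box promoters shown are those of the 4 genes with the lowest ratios among E-box genes whose measured probe sets lay on 1 side and whose mean signal was at least 4 times the floor. Capitals mark the E-box, and all 4 lie on the plus strand. The Mybbp1a window is chr11:72441077-72441376, that of Imp4 chr1:34439579-34439878, that of Pes1 chr11:3963725-3964024 and that of Tsr1 chr11:74897830-74898129. The E-box begins 121 bases before the start base in Imp4 (-121), and 2, 24 and 40 bases after it in Pes1, Tsr1 and Mybbp1a.
Mybbp1a: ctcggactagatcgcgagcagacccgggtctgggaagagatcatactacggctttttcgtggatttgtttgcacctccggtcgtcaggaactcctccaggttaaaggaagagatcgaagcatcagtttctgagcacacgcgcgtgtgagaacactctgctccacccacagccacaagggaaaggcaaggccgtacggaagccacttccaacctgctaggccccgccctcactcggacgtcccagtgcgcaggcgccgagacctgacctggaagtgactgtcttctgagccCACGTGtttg
Imp4: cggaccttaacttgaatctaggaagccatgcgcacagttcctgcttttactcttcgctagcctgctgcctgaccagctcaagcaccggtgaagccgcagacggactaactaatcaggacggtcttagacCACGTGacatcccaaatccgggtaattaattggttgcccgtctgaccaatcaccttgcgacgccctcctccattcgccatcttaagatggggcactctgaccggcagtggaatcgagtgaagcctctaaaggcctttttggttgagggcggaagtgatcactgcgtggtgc
Pes1: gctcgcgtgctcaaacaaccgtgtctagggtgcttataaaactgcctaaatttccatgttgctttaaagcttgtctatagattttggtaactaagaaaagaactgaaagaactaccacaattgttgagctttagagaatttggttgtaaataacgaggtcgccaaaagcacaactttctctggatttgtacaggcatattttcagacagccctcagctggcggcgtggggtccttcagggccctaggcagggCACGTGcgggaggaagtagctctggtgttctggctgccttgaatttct
Tsr1: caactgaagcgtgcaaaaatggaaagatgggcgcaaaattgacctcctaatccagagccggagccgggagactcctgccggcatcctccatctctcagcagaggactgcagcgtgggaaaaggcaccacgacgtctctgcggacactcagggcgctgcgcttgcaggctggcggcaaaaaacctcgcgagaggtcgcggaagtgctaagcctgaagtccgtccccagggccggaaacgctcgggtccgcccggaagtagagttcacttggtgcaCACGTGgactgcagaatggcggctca

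These 4 genes read 11955 and 19606 (Mybbp1a), 1742 and 2786 (Imp4), 4227 and 5938 (Pes1), and 10382 and 14156 (Tsr1) in the knockout and the wild type. None of them reached 2-fold. In the MYC network Myc itself read 10639 and 13887, a log2 ratio of -0.38, and its partner Max 1783 and 2239. Both were slightly dimmer in knockout cells, within the spread of probe sets. Mycn, a MYC paralog, read 2571 and 718, 3.58-fold higher, with a second measured probe set at 1.15. Mxd1, which competes with MYC for MAX, read 846 and 214, at least 2.15-fold higher by 1 of 3 probe sets. Mxd3, of the same family, read 1094 and 3251, 2.97-fold lower, and its 3 probe sets lay between -1.57 and -1.26. The Mxd3 probe sets thus agree, and run opposite to Mxd1. Mxd4, also of this family, read 9471 and 5807, a log2 ratio of 0.71, with its other probe sets between -0.05 and 1.39. Of the 12 measured genes of the network 2 were at least 2-fold higher and 2, one of them Zbtb17, at least 2-fold lower.

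The remaining genes of the pathway, 108 named genes of a list of 110, had a median near that of the set. All 108 were measured. At least 2-fold lower were 10 (9.26%, against 5.65% of all measured genes), and none was at least 2-fold higher (against 7.23%). For the set above such an excess depended on the setting, and no counts by setting are given for these genes. A ratio below 0 was found for 88 (81.5%, against 50%), and the median log2 ratio was -0.36. In the polymerase I list 1 of 10 was past 2-fold, Ttf1, the transcription termination factor, at 198 in knockout cells and 1123 in wild-type cells, at least 2.85-fold lower, with another measured probe set at 1.11. Shq1, an assembly factor of H/ACA particles, read 434 and 1005, 2.32-fold lower, and was the 1 of 5 snoRNP genes past 2-fold. Among 38 small subunit genes 3 (7.89%) were past 2-fold. Of these Wdr3, a processome subunit, read 4236 and 9275 and Riok2, a kinase of late small subunit assembly, 1358 and 2844. Among 42 large subunit genes 4 (9.52%) were past 2-fold, with Wdr18 at 742 and 1998 and Rsl24d1 at 1014 and 2569. Of 13 genes of the RNA exosome and nucleases Exosc5 alone was past 2-fold, at 1591 and 3932. The median was -0.41 in the small subunit list, -0.50 in the exosome list and -0.30 in the large subunit list. Wdr18 and Riok2 each have further measured probe sets closer to 0 or above it.

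**Figure D3:**
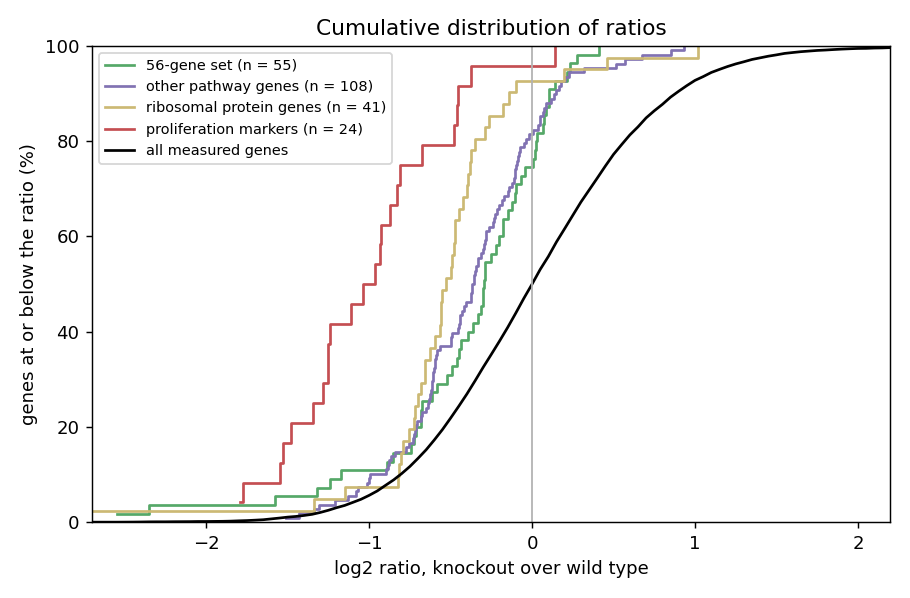
Share of genes, in percent, at or below each log2 ratio of knockout over wild type, for the 55 measured genes of the set, 108 other pathway genes, 41 ribosomal protein genes, 24 proliferation markers and all measured genes. Over most of the range the curves of the set and of the other pathway genes run close together, left of all measured genes and right of the proliferation markers. The lowest genes of the set, Znhit3 and Rrp9, lie left of every proliferation marker.

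Ribosomal protein genes, whose products these factors assemble, had a lower median before any further normalization. Of 41 measured, 38 had a ratio below 0 and the median log2 ratio was -0.53. At least 2-fold lower were 3 (7.32%, against 5.65% of all measured genes), and 1 was at least 2-fold higher (2.44%, against 7.23%). Without Rpl22, which read 2937 in knockout cells and 68720 in wild-type cells, the median of the other 40 was -0.51. Quantile normalization brought their median to -0.06 and loess to 0.03, so their direction depends on the scaling, whereas the set stood at -0.26 and -0.24. The 18S ribosomal RNA control probe sets were dimmer in the knockout, at 10253 and 18809, 12800 and 27727, and 7273 and 13900, 1.83-fold to 2.17-fold. Spiked hybridisation controls were brighter there, by a median of 0.29 on the log2 scale over 18 probe sets. Labelling starts from polyadenylated RNA in such kits, so an 18S signal is no measure of the ribosomes in these cells.

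Genes that host small nucleolar RNAs in their introns, Gas5 and the Snhg genes, were added as a list after the values of the set were seen. Of 12 measured, 3 were at least 2-fold lower, 1 was at least 2-fold higher and 10 had a ratio below 0, with a median log2 ratio of -0.46. Snhg8 read 4472 in knockout cells and 11821 in wild-type cells, Snhg5 2716 and 6327, and Snhg6 2914 and 6162. Gas5 read 9045 and 12915, with its 4 probe sets from -0.69 to 0.10. Snhg10 read 1043 and 315, while its other probe sets stood at -0.32 and -0.98.

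Proliferation markers were lower beside the set. Of 24 measured, 12 were at least 2-fold lower, none was 2-fold higher and 23 had a ratio below 0, with a median log2 ratio of -1.0 and summed signals of 188402 in knockout cells and 361969 in wild-type cells. Mki67 read 6470 and 18940, the mitotic kinase Cdk1 3754 and 8927, and Mcm2, a helicase subunit of DNA replication, 6212 and 8563. The part of a lower share of dividing cells in the ratios of the ribosome biogenesis genes was not tested.

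In nucleolar stress, as background, free ribosomal proteins such as that of Rpl11 hold back Mdm2, the ligase that marks p53 for breakdown. Of the 12 genes listed as p53 targets and nucleolar stress genes 9 were named and 8 measured. Trp53, which encodes p53, Bax and Rpl5 were not among the named genes, and Cdkn2a lay below the floor. Of the 8 measured genes 5 were past 2-fold on the high side and 1 on the low side. Their log2 ratios had a median of 1.55 (1.31 to 1.92 under the alternatives). The 5, named after their values were seen, are p53 targets. Zmat3 read 6517 in knockout cells and 523 in wild-type cells, 12.5-fold higher, and Ccng1 20199 and 3101, 6.51-fold higher, with its dimmer probe sets at 2.05 and 1.86. Cdkn1a, the cell cycle inhibitor p21, read 8627 and 1987, 4.34-fold higher. Of the cell death genes Pmaip1 read 1350 and 244, at least 3.43-fold higher, and Bbc3 1422 and 565. Mdm2 itself read 2875 and 1825, with a second probe set at -0.01. The genes lower in the knockout were Rpl22, given above, and Rpl11, at 23524 and 34685, a log2 ratio of -0.56. Whether these differences relate to those of the ribosome biogenesis genes was not tested.

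**Figure D4:**
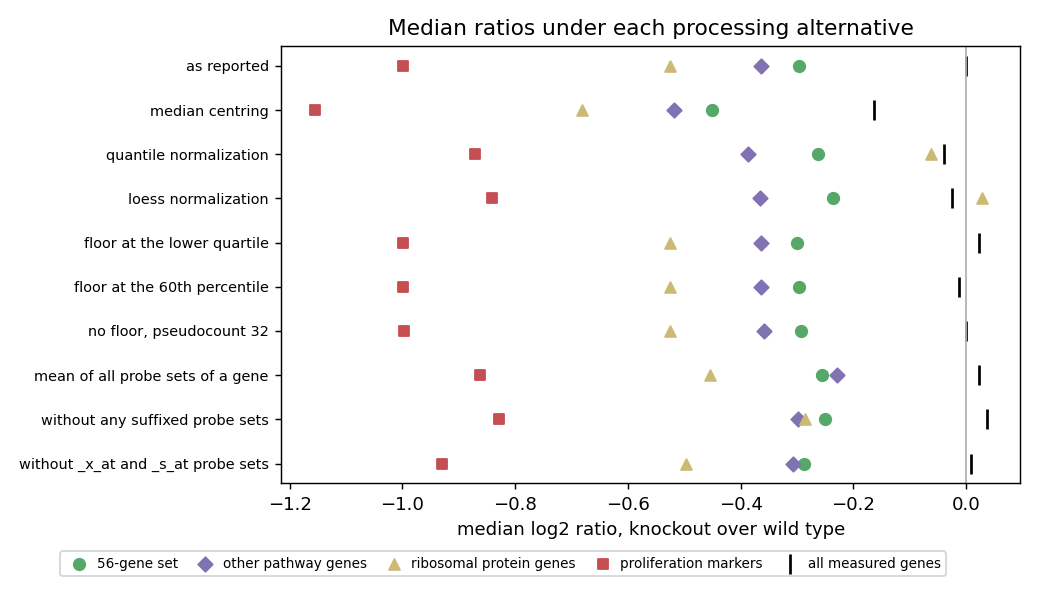
Median log2 ratio of knockout over wild type under the reported setting and 9 alternatives, for the 56-gene set, other pathway genes, ribosomal protein genes, proliferation markers and all measured genes. The set stays between -0.45 and -0.24, and the ribosomal protein genes range from -0.68 to 0.03.

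The median of the set stayed below 0 and below that of all measured genes in each of the 10 settings, as the plot of medians by processing alternative shows. Median centring moved the set to -0.45 and the median of all measured genes to -0.16, a difference of -0.29 between the set and all measured genes.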

How the data were processed

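The deposited table holds signal intensity values per probe set on a linear scale. GCOS 1.4 is named in the submitters' processing notes, with no settings stated there. Trimming 2% at each end leaves a mean of 1000 on each array, the pattern that scaling to 1 target gives, though no source used here states that step. Of 45101 probe sets 64 are controls. Probe sets with 1 gene symbol in the supplied platform annotation (34958) were named, 34754 through the gene identifiers of RefSeq GRCm38.p6, and 932 with several symbols were not. Detection calls were not used here. Values below the floor of 394 were raised to it before log2 of knockout over wild type, so a fold with 1 array under the floor is a lower bound. That holds also for dim probe sets given without this mark, among them some of Polr1a, Taf1d, Ebna1bp2 and Ncl. A difference was counted from 2-fold where at least 1 array exceeded the floor. A gene was read by its brightest probe set, and all 56 members could be named. The members and gene lists were chosen with earlier results of these data known. Examples among the other pathway genes followed a rule of up to 2 highest and 2 lowest past 2-fold per list, and some further genes were preset. The p53 target, snoRNA host and other-cell-type examples were chosen after their values were seen. Computation used Python 3.11.15, pandas 2.3.3 and statsmodels 0.14.6 (loess, span 0.3), and the calls were tested on simulated data. The precision is limited by the number of arrays.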

Additional observations from a re-analysis of the deposited data

How the results depend on the processing

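The results were recomputed with median centring, with quantile or loess normalization, with floors at the lower quartile and the 60th percentile, with a pseudocount of 32 in place of the floor, with the mean of all probe sets of a gene, and leaving out probe sets of shared sequence in 2 ways. The median of the measured genes of the set (49 to 56 by setting) lay between -0.45 and -0.24 in all of them and the count of genes at least 2-fold higher was 0 in each. From 1.5-fold, 0 were higher in the deposited values and 1, Brix1, with the mean of all probe sets. Median centring moved the set's median to -0.45 and its share below 0 to 92.7%, as it shifted all measured genes by -0.16. Small positive ratios, among them those of Ubtf, Nop58, Mphosph10, Wdr12 and Brix1, turned below 0 there. It also turned the split of all measured genes from 779 higher and 608 lower to 566 higher and 927 lower. Quantile normalization gave 670 higher and 693 lower, and loess 686 and 680. The count of members at least 2-fold lower was 3 under loess (5.45%, against 6.31% of all measured genes), 6 as reported (10.9% against 5.65%), and 16 from 1.5-fold. With the floor at the lower quartile 12.5% of the set and 13.9% of all measured genes were at least 2-fold lower. The large subunit median reversed to 0.019 with the mean of all probe sets, since dimmer probe sets of several of these genes were above 0. Of 487 values of single genes under the alternatives 478 stayed within the spread of probe sets and 9 moved further, for Npm1, Znhit3, Polr1c, Noc4l, Bysl and Brix1. Median centring is a shift smaller than that spread and could not move genes past it. A value within the spread can still change direction, as Nop10 and Nop56 did under quantile and loess normalization. No paired analysis was possible because there is 1 array per genotype. The dimmest genes, such as Rrp12 and the knockout values of Znhit3 and Rrp9, are limited by the floor.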
